A study of Caenorhabditis elegans with 2 samples.

Results

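The mab-9 gene of Caenorhabditis elegans (WBGene00003106) encodes the T-box transcription factor whose chromatin binding was profiled, so peaks at this locus are candidate contacts of MAB-9 with its own gene. The locus was defined as the gene, on chromosome II from 516024 to 521635 of the ce11 build on the plus strand, with 10 kb to either side. It held 3 of the 1431 peaks of the conservative list, 3 of the 1492 of the other pooled list, 1 of the 824 of replicate 1 and 1 of the 869 of replicate 2. Binding was measured by chromatin immunoprecipitation and sequencing (ChIP-seq) in whole L1 larvae, synchronised by starvation after bleaching and taken at 6 hours. Both biological replicates came from strain RW12257, which carries the allele st12257[mab-9::TY1::EGFP::3xFLAG] at the endogenous gene, inserted by CRISPR, and the immunoprecipitation used an antibody against GFP. As the allele name is written, the tag follows MAB-9; the reference genome does not hold the tag sequence, and whether the insertion affects signal at its own locus was not tested. There is 1 group, so no comparison between conditions and no test between groups exists, and whole larvae mix every cell type that does and does not make MAB-9.

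T-box factors bind DNA through a conserved domain that recognises a short site with the core letters AGGTGTGA. Genes for developmental transcription factors are often bound by their own products, a loop that can hold their expression on or limit it. In the worm, mab-9 is required for posterior hindgut cell fates, for the male tail and for axon outgrowth of ventral cord motor neurons. The gene has 1 annotated transcript with 9 exons, and its 5′ UTR runs to position 516155. Upstream it is separated by 6693 bp of intergenic sequence from srh-105, a predicted chemoreceptor gene read on the opposite strand, so that this region lies between divergent starts. Only 9.85% of protein-coding genes with a free upstream region had one of that length or longer, and the median was 1058 bp. Downstream, slc-36.2, named for a solute carrier family of amino acid transporters, begins after 966 bp.

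The sequences under the 4 peaks that a pooled thresholded list held in this window are shown because they are the stretches of the locus where binding was called. Each was read from RefSeq's ce11 sequence, plus strand, as the 300 bases around the summit, and the peak at the gene start is cut at the last base before the annotated transcript. Capitals mark matches, on either strand, to any of 7 patterns: the T-box site AGGTGTGA, its left part AGGTGT, its middle part GGTGTG and its right part GTGTGA (which overlap each other), the GAGA repeat GAGAGAGA, the E-box CACGTG and the GATA pattern TGATAA.
Gene-start peak, chrII:515775-516023: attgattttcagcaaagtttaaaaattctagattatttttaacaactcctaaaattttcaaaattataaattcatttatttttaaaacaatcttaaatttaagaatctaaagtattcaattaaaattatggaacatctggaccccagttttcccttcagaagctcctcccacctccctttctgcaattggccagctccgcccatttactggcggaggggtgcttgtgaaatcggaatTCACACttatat
Peak 1125 bp upstream, chrII:514749-515048: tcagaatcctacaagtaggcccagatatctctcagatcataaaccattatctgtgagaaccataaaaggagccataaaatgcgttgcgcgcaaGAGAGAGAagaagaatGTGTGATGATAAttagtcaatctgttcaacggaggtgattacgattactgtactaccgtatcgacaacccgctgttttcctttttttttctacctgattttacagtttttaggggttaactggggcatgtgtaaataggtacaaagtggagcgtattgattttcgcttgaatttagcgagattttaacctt
Peak 3859 bp upstream, chrII:512015-512314: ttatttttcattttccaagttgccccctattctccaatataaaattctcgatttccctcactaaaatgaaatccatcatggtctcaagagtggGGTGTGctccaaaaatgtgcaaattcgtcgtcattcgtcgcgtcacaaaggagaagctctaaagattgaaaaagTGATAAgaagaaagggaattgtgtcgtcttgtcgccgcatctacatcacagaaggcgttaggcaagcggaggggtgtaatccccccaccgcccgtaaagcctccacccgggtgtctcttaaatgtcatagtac
Peak 9797 bp upstream, chrII:506077-506376: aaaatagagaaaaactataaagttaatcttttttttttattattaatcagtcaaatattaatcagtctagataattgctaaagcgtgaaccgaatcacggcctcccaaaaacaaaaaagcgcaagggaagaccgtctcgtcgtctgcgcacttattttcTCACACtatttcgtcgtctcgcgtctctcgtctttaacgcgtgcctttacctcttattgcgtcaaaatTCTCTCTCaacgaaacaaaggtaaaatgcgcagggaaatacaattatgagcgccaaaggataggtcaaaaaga

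All called binding at the locus lay upstream of mab-9. No peak of the conservative list, the other pooled list or either replicate's thresholded list had its summit inside the gene or in the 10 kb downstream of it. Peaks of these thresholded lists had an irreproducible discovery rate of at most 0.01. That rate is small where a peak ranks high in both of the compared peak sets. A weak peak can therefore have a larger rate even where its replicate signals are alike. Having 3 or more conservative peaks within 10 kb was shared by 1.56% of the 19973 protein-coding genes, while 24.7% had at least 1. Some entries of the list have the same replicate values as another entry, so these counts are of listed peaks and not always of separate sites. The 3 at mab-9 have different replicate values. Within the upstream intergenic region itself there were 2 conservative peaks. Of the 2104 genes with an upstream region of at least 6000 bp, 13.4% had at least 1 conservative peak in it and 2.99% had 2 or more.

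**Figure D1:**
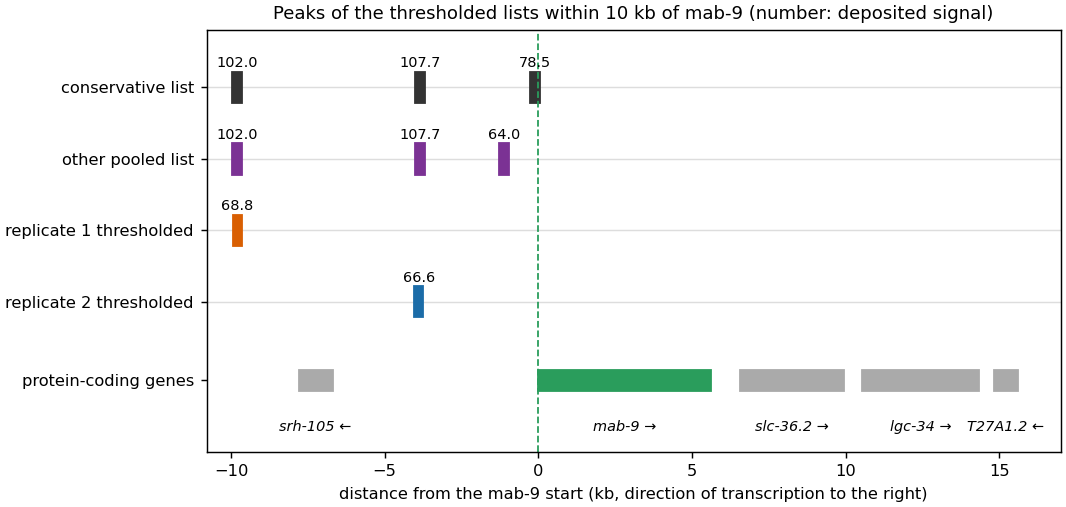
Peaks of the 4 thresholded lists against distance from the mab-9 start in kb, with the protein-coding genes of the window below (arrows give the strand) and the deposited signal above each peak. Every summit lies left of the mab-9 start; the conservative and the other pooled list share those at 9797 and 3859 bp, and differ in the third, at 99 bp in the first and 1125 bp in the second.

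The gene-start peak was the weakest of the conservative peaks of the locus. It ran from 515765 to 516084, reaching 61 bp into the first exon, and its summit lay 99 bp upstream of the start. Its deposited signal, given in units of the peak caller whose scale is not known here, was 78.5 in the pooled data, 42.0 in replicate 1 and 29.3 in replicate 2. The pooled value was below the list median of 98.7 and stood at rank 1054 of 1431. In the replicates' own ranked lists the peak stood at rank 1515 of 116030 and 2912 of 90836, with its summit 101 and 139 bp upstream. A conservative summit between 1000 bp before and 250 bp after the start was found at 4.85% of protein-coding genes, and at 2.95% of those with an upstream region of at least 6000 bp.

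Whether the gene-start peak was called depended on the list. Its irreproducible discovery rate was 0.00718 in the ranking behind the conservative list, inside the threshold of 0.01. In the ranking behind the other pooled list it was 0.0407, outside the threshold, and that list therefore held no peak there. Within the replicates' own rankings the rate was 0.166 and 0.417, and neither thresholded list held the peak. Absence from both replicates' lists was common among weak peaks: it applied to 34.4% of all conservative peaks (39.1% were in both lists and 26.5% in exactly 1), to 66.3% of those at or below the median signal and to 2.38% of those above it.

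The peak 1125 bp upstream showed the reverse order. Its signal was 64.0 in the pooled data, 35.5 in replicate 1 and 27.1 in replicate 2, lower than at the gene start in each. Its rate was 0.0174 in the ranking behind the conservative list and 0.00683 in the other, so that only the other pooled list kept it. Its summit, at 514899, lay in the proximal part of the intergenic region, and mab-9 was the nearest gene start. The lists overlapped widely elsewhere, with 85.0% of conservative peaks shared with the other pooled list and 81.6% in the other direction; of the conservative peaks at or below the median signal 70.9% were shared. Each pooled list thus placed 1 weak peak near the mab-9 start, and not the same one.

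The strongest pooled signal of the locus lay 3859 bp upstream, from 512005 to 512324. It was 107.7 in the pooled data, 42.7 in replicate 1 and 66.6 in replicate 2, and stood at rank 625 of the conservative list. In replicate 1 the peak 9797 bp upstream was higher, at 68.8. This peak was in both pooled lists, with rates of 0.00166 and 0.00120, and in the thresholded list of replicate 2, where its rate was 0.00137. In replicate 1 the rate was 0.0328 and the peak was not kept. By distance it belongs to srh-105 rather than mab-9: its summit was 2835 bp upstream of the srh-105 start. Peak lists do not tell which of the divergent genes a site between them serves.

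The farthest conservative peak, from 506067 to 506386, had a signal of 102.0 in the pooled data, 68.8 in replicate 1 and 37.5 in replicate 2. Its pattern across replicates was the opposite of that 3859 bp upstream: it was in the thresholded list of replicate 1, with a rate of 0.00229, and not in that of replicate 2, with a rate of 0.275. It lay beyond srh-105 as seen from mab-9, 213 bp upstream of the start of a gene read away from the locus. That gene, WBGene00005324 (T27A1.1 in RefSeq), starts 10 bp outside the window and is named after its position was seen. The peak is thus at the start of another gene and 9797 bp from that of mab-9.

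**Figure D2:**
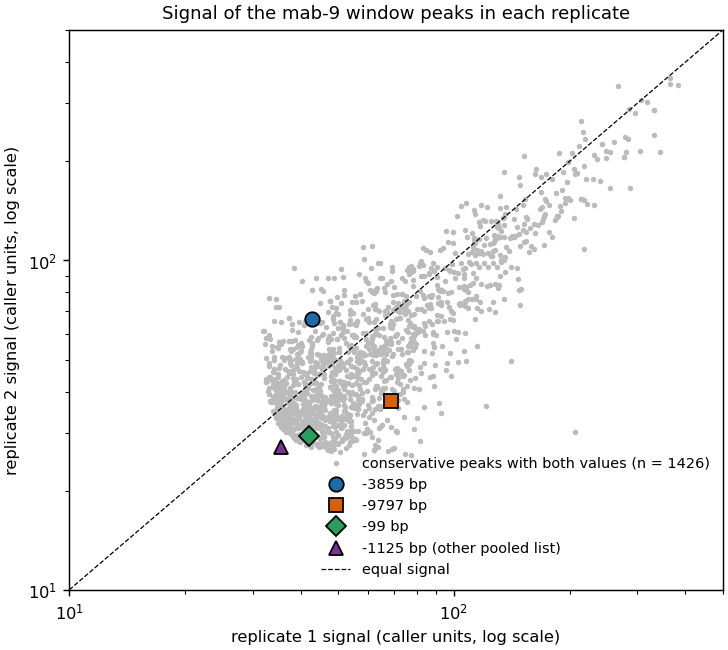
Signal in replicate 1 (horizontal) against replicate 2 (vertical), both on log axes in peak-caller units, for the 1426 conservative peaks with a value in both (grey) and the 4 called peaks of the mab-9 window (coloured, by distance from the start). The peaks at 3859 and 9797 bp fall on opposite sides of the line of equal signal, and those at 99 and 1125 bp sit at the low end of the cloud.

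Agreement between replicates was measured as the log2 ratio of their signals. Across the 1426 conservative peaks with a value in both replicates, the median ratio of replicate 1 to replicate 2 was 0.20, with an SD of 0.44. At the gene-start peak the ratio was 0.52, a 1.43-fold difference, and 45.9% of conservative peaks lay at least as far from the median. At 1125 bp it was 0.39. The stronger peaks differed more: the ratio was -0.64 at 3859 bp (1.56-fold, with 5.54% of conservative peaks at least as far from the median) and 0.87 at 9797 bp (1.83-fold, with 11.5%). The replicates placed summits 38 bp apart at the gene start, 13 bp at 1125 bp, 45 bp at 3859 bp and 31 bp at 9797 bp, against a median gap of 23 bp over the conservative peaks. Since 1297 of the 1431 conservative peaks have the same width of 320 bp, a summit is mostly the middle of a peak of fixed width.

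The ranked lists keep peaks of almost any strength. In the ranking behind the conservative list, 1514 of 129095 peaks (1.17%) had a rate of at most 0.01. In the other ranking it was 1573 of 130637 (1.20%). The pooled thresholded lists held 1431 and 1492 peaks, so a rate within the threshold was not always enough to be listed. The first of these rankings had 38 peaks in the window, and the 6 with the highest signal were all upstream. Besides the 4 already described, these were a peak 5161 bp upstream (60.1 pooled, 31.0 in replicate 1 and 26.0 in replicate 2) and one 3289 bp upstream (55.8, 33.6 and 24.7). Their rates of 0.0367 and 0.0321 missed the threshold. Of the 10 highest peaks of the window, 6 were in neither pooled thresholded list, and 3 of these 6 were upstream. The 13 ranked peaks of the upstream intergenic region had a median signal of 35.6, against 21.6 for the whole ranked list, but without the 3 that a pooled list held the other 10 had a median of 22.4, near that of the whole list.

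Replicate 2 had a further peak between those at 99 and 3859 bp. It lay 2252 bp upstream of mab-9, the nearest gene start, with a signal of 34.5 and rank 1618 of 90836, above the 29.3 at the gene start in that replicate. Pooled peaks 2337 and 2133 bp upstream overlapped it, with signals of 37.9 and 12.9. Each had 13.5 in replicate 1, where the summit lay 2138 bp upstream, and a rate of 0.705. No thresholded list held any of these peaks.

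Inside the gene 8 ranked summits were found, 7 of them in introns. Their signals were from 9.63 to 39.1, with a median of 19.7, near that of the whole list. The highest, in an exon 4479 bp from the start, had 26.5 in replicate 1 and 10.3 in replicate 2 and a rate of 0.657. The spacing of ranked peaks was 1.43 per kb inside the gene, 1.80 per kb in the 10 kb upstream and 1.20 per kb downstream, with 1.29 per kb over the genome. The 12 downstream peaks had a median signal of 18.0.

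The highest downstream peak, from 521660 to 521979, had its summit 185 bp past the end of mab-9 and 782 bp upstream of slc-36.2. Its signal was 50.04 pooled, 25.8 in replicate 1 and 27.9 in replicate 2, and its rate of 0.0848 missed the threshold. It is also the summit of the pooled ranking nearest to the mab-9 stop codon, 378 bp away; in replicate 1 a weak ranked peak, with a signal of 7.75, had its summit 90 bp from the stop codon. No thresholded list held a peak there.

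**Figure D3:**
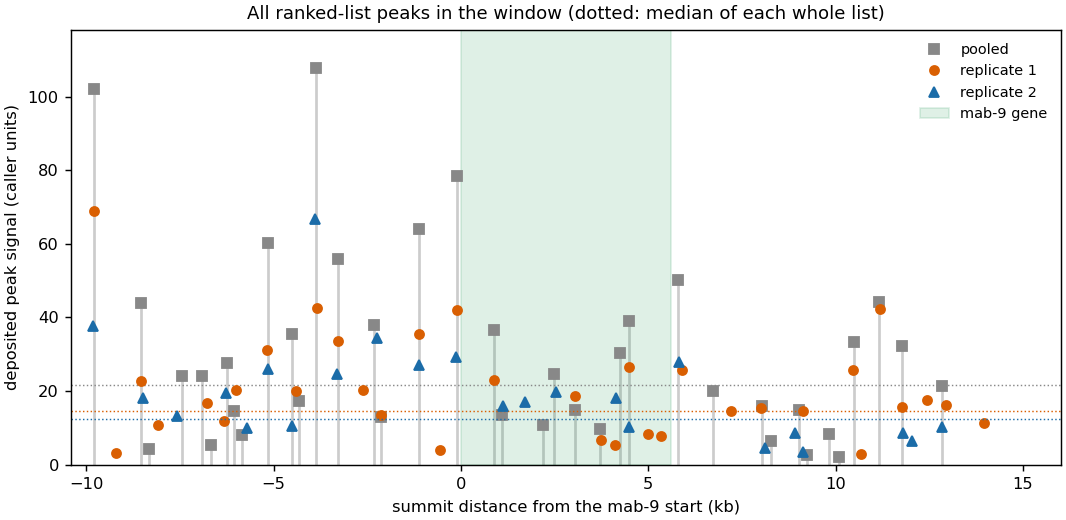
Deposited signal (peak-caller units) of every ranked-list peak in the window against summit distance from the mab-9 start in kb, in the pooled data (grey squares with stems), replicate 1 (orange) and replicate 2 (blue); dotted lines are the medians of the whole lists and the shaded band is the gene. The tallest stems, up to 107.7, stand left of the gene, and the highest inside it is 39.1.

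**Figure D4:**
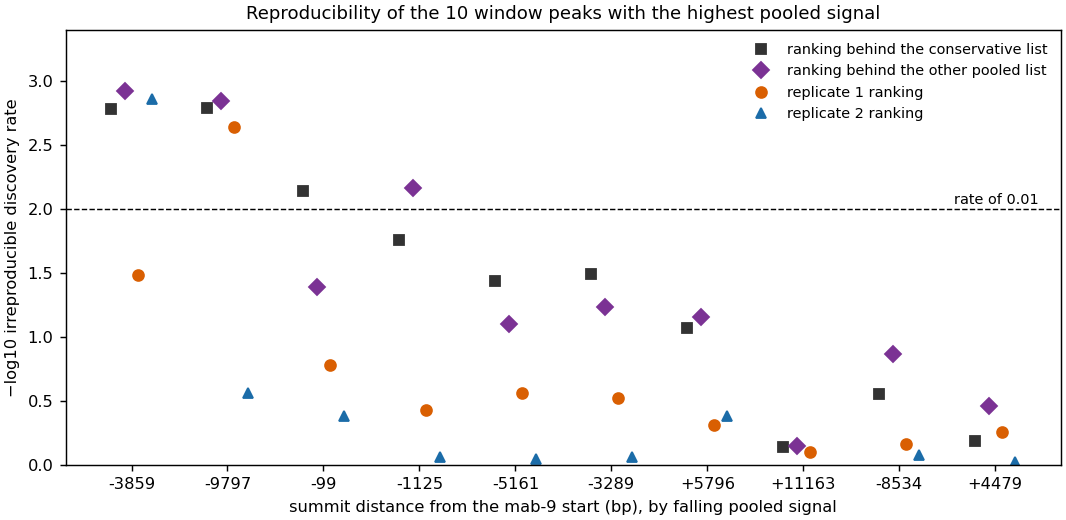
The −log10 of the irreproducible discovery rate in 4 rankings for the 10 window peaks with the highest pooled signal, ordered by falling signal; the dashed line is a rate of 0.01 and higher is more reproducible. The peaks at 3859 and 9797 bp pass in both pooled rankings, and those at 99 and 1125 bp pass in opposite ones.

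The other genes of the window had no conservative peak at their starts. The nearest conservative summit was 2835 bp from srh-105, 6677 bp from slc-36.2 and 10649 bp from lgc-34, which belongs to the ligand-gated ion channel genes. It was 20950 bp from the start of T27A1.2, whose gene body reaches the window's right edge. In the ranked list the highest signal at a start was 78.5 for mab-9, 50.04 for slc-36.2, 36.1 for T27A1.2, 33.4 for lgc-34 and 27.5 for srh-105. Both noncoding RNA genes of the window lie within slc-36.2, and the ranked summit nearest to them had a signal of 20.1.

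The full T-box site AGGTGTGA was absent from all 4 windows and from the whole 6693 bp upstream region. It is rare: it was in 0.559% of the conservative peaks' windows of 300 bp, in 0.781% of gene-start windows (250 bp before to 50 bp after the start), and in 12.9% of genome stretches as long as the upstream region. Parts of it were present. GTGTGA lay in the windows at 99, 1125 and 9797 bp, as it did in 14.3% of conservative windows and 12.4% of gene-start windows. At the gene start it is on the minus strand, from 516012 to 516017, with its far edge 12 bp before the transcript start. GGTGTG lay in the window at 3859 bp, 57 bp from the summit, and in 10.3% and 7.60% of those sets.

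The GAGA repeat was in 12.2% of conservative windows and 3.54% of gene-start windows. It was in the windows at 1125 and 9797 bp and not in those at 99 and 3859 bp. The GATA pattern was in 14.0% of conservative windows and 30.2% of gene-start windows, and it was in the windows at 1125 and 3859 bp. No window held the E-box. The window at the mab-9 start had 32.7% GC, and 8.95% of conservative windows had as little. The median was 42.3% over conservative windows and 34.3% over the gene-start windows of all genes. The windows at 1125 and 3859 bp had 39.0% and 45.0%, and that at 9797 bp had 114 G or C bases in 300. These matches are letters in a window and do not show that a protein was bound through them.

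mab-9 was the only gene of the T-box family list with a conservative peak at its start. The family list had 22 genes under 21 symbols, and 1 of 22 (4.55%) was called, against 4.85% of all protein-coding genes, so the share of the family was near the background. The other pooled list and each replicate's own list called 0 of the 22, against 4.97%, 3.29% and 3.51% of all genes. The other pooled list's peak 1125 bp upstream of mab-9 lay outside the start window, which begins 1000 bp before the start. In the ranked list, the highest signal at a start was 78.5 for mab-9. The next were 53.6 at tbx-43 (28.7 in replicate 1 and 13.8 in replicate 2) and 48.5 at tbx-34 (19.0 and 33.4). The other T-box genes with a ranked peak at the start, 17 in all including these, ranged from 19.8 to 53.6, and 4 had none. A start signal as high as that of mab-9 was found at 4.24% of all protein-coding genes. Replicate 2's value of 29.3 at mab-9 was below its 33.4 at tbx-34, so the lead of mab-9 held in the pooled data and replicate 1.

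Conservative peaks within 10 kb were found at 5 of the 22 T-box genes (22.7%, against 24.7% of all genes). Besides mab-9 these were tbx-36 with 2, and tbx-9, tbx-41 and sea-1 with 1 each; sea-1 is known as a signal in sex determination. The strongest, near tbx-9, had a signal of 169.1, was also within 10 kb in both replicates' thresholded lists and lay 7741 bp from the start. None of these other family members had its peak at the start.

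**Figure D5:**
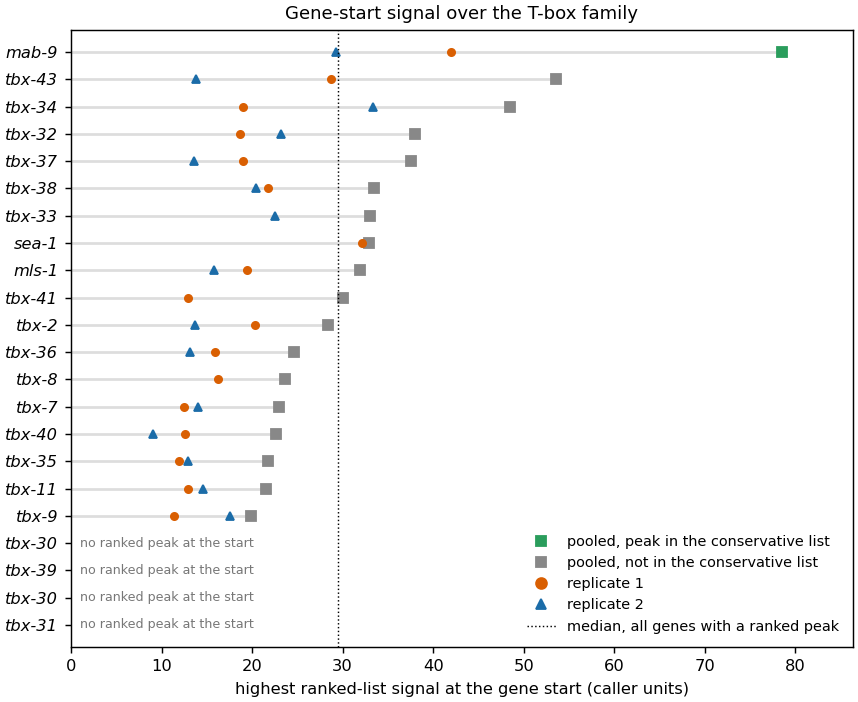
Highest ranked-list signal at the start of each T-box gene (peak-caller units), in the pooled data (squares, green where the conservative list held the peak), replicate 1 (orange) and replicate 2 (blue); the dotted line is the pooled median of 29.4 over all genes with a ranked peak at the start. The pooled value of 78.5 at mab-9 is above the next, 53.6 at tbx-43, while the replicate 2 value at mab-9 is below that at tbx-34.

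Genes whose start peak was most like that of mab-9 in level were also listed. Likeness was the distance between log2 signals in the pooled data, replicate 1 and replicate 2, over 961 other genes with a conservative peak at the start and a value in both replicates. The closest, at 0.05, was mes-2, which encodes the histone methyltransferase of the worm's Polycomb complex; its signals were 79.5 pooled, 41.9 in replicate 1 and 28.3 in replicate 2, with the summit 169 bp upstream. Next came ipla-3, a phospholipase gene (76.5, 43.1 and 28.1), and R160.3 (78.7, 42.9 and 31.1). The remaining pair were rnf-121, which encodes a RING finger protein, and C16C10.4, whose starts share 1 peak (74.4, 42.7 and 30.2). Because the genes were chosen for like signals, the likeness itself is a description only.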

How the data were processed

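The data are peak lists from anti-GFP ChIP-seq of whole larvae, 1 group with 2 biological replicates per the labels. Per the labels the build is ce11; aligner, peak caller and versions are not given in the sources used here. Pooled lists have no header, and it is the accompanying texts that describe them as combining both replicates, with a control file. Replicate lists come from 1 replicate and the same control. The deposited signal is the authors' peak-caller value on an unstated scale, and served here for ranking. The score, as deposited, follows the irreproducible discovery rate, and the authors' ranked lists give the −log10 of that rate. No file gives read counts, so the depth behind each value is unknown.

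All 1431 conservative peaks were rows of one pooled ranked list and all 1492 other pooled peaks rows of the other. The compared peaks of the first were found, by identical coordinates, in the replicates' own ranked lists, from which replicate values were taken (both for 1426 conservative peaks); those of the second had 2 such matches in all, and what they are is not stated in the sources. A peak belonged to a window by its summit, and peaks were shared when overlapping by at least 50% of the shorter. Genes were those of Ensembl release 115, a gene start being the outer 5′ end; names missing there came from RefSeq.

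The members, lists and alternatives were chosen with earlier results of these data known. Named genes are mab-9, genes overlapping the window, the T-box family (mab-9, mls-1, sea-1 and symbols starting tbx-), 16 motor neuron and hindgut co-regulators, and the 5 genes whose gene-start peak was most alike. With 1 group no test was run; shares over all genes or peaks are given as background. Alternatives were other lists, each replicate alone, flanks, start windows, overlaps, ranking columns and a signal minimum. Counting and overlap steps were tested on simulated data. Python 3.11.15, NumPy 2.4.6, pandas 2.3.3 and matplotlib 3.10.9 were used.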

Additional observations from a re-analysis of the deposited data

How the results depend on the processing

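Of 43 values recomputed under the alternatives for 9 results, 26 stayed close to the value reported, 17 moved further and 0 reversed. Close meant within 1.5 times for counts, shares and ranks, and within 1 SD for the summit distance and log2 ratio. Counts, shares and ranks have no sign, so only the summit distance and the log2 ratio could have reversed. The alternative for the log2 ratio led to the same peak in each replicate and the same value. Ranked by score, the strongest peak stood at 1 in place of 625, in a tie of 1020 conservative peaks at the highest score of 1000. For each replicate alone, its own deposited lists were used, and no pooled list was made anew without a replicate. In each replicate's thresholded list the count of peaks within 10 kb was 1 in place of 3. The share of genes with 1 or more was 16.4% to 17.5%, while the 1.56% is for 3 or more. In these lists 0 T-box genes had a peak at the start in place of 1. In the replicates' own ranked lists the summit of the gene-start peak was at -139 to -101 bp. Its rank there was 1515 to 2912, and that of the strongest pooled peak 431 to 1430. Those ranks are among 116030 and 90836 peaks and the conservative ranks among 1431, so their closeness is not a comparison of like with like. The T-box count was also 0 in the other pooled list, whose peak 1125 bp upstream of mab-9 lay outside the start window, and among peaks at or above the median signal. With a flank of 5 kb, 1 conservative peak was in a replicate's thresholded list in place of 2. At that flank mab-9 had 2 conservative peaks, and 3.03% of genes had at least as many. At 20 kb mab-9 had 3, and the share was 4.87%. The share of genes with a peak at the start was 3.16% among peaks at or above the median signal and 7.43% within 2000 bp to either side, in place of 4.85%. The cause of these changes was not tested. The other pooled list held no peak overlapping that at the gene start, and mab-9 has a single annotated transcript start, so these alternatives gave no other summit distance. No paired analysis was possible because there is 1 group. Depth is unknown, so a missing peak may be one not detectable here.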

Other observations

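Regulators that act in the same tissues as mab-9 were looked up in the same way. Of 16 motor neuron and hindgut co-regulators, 2 had a conservative peak at the start and 4 had at least 1 within 10 kb, beside 4.85% and 24.7% of all protein-coding genes. The start peak of unc-30, the homeobox gene that specifies GABAergic motor neurons, had a signal of 76.8 pooled, 37.7 in replicate 1 and 48.0 in replicate 2, beside 78.5, 42.0 and 29.3 at mab-9, with its summit 150 bp from the start. The other start peak was that of tlp-1, a zinc finger gene of the male tail, with 153 pooled, 71.8 in replicate 1 and 74.1 in replicate 2; 6 conservative peaks lay within 10 kb of tlp-1 against 3 at mab-9. The remaining 2 genes with a peak in the window were egl-27 and cfi-1. Of the genes without a conservative peak at the start, egl-27 had the highest ranked-list signal there, 61.1, followed by unc-4 with 51.4. At unc-3, the COE factor of cholinergic motor neurons, it was 50.6. Neither unc-4 nor unc-3 had a conservative peak within 10 kb. The median of this signal over the co-regulators with a ranked peak at the start was 29.5, against 29.4 over all protein-coding genes, and vab-7 had no such peak. These lists are short, and no test was run on them.

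In replicate 1 a ranked peak in an intron of lgc-34, 642 bp inside the gene, had a signal of 42.3, as high as the 42.0 at the mab-9 start in the same replicate. The matching replicate 2 peak was not in that replicate's own ranked list, the pooled signal was 44.2 and the rate was 0.730.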
